A study of Anas platyrhynchos with 20 samples.

Results

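Genes of cholesterol synthesis, sterol sensing, uptake, esterification and export were examined in RNA-seq libraries of duck liver and breast muscle. The genes were taken by name: of 35 listed symbols, 28 had a row of that name in the table of 25117 genes, 16 of them synthesis enzymes and 12 genes of sensing, transport, esterification and export. No row carried the name IDI1, CYP51A1, TM7SF2, EBP, SCAP, NPC1L1 or MYLIP. For 4 of these 7, an entry with another name has the same gene identity in the RefSeq gene table (LOC101791330 for CYP51A1, LOC101792434 for IDI1, LOC101798210 for SCAP and LOC101794003 for MYLIP), and their values are given beside the members without being counted among them. The ducks were male Runzhou white crest ducks on the same basal diet. To it 2% linseed oil (HL, liver, and HM, breast muscle) or 2% duck oil (CL, liver, and CM, breast muscle) had been added. The labels give day 28. By the study's methods, the diets were fed for 28 days from 28 days of age, and tissues were taken at the end. There were 5 libraries in each group and 20 in all, from 10 birds that were picked within their diet for high (linseed) or low (control) n-3 fatty acid ratios, so they are not a random draw of each diet. Linseed oil is rich in alpha-linolenic acid, an n-3 fatty acid of plants, and the comparison asks how feeding it changes gene expression in the organ that makes most of the lipids and in the meat.

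Cholesterol is built in the cytosol and the endoplasmic reticulum from acetyl-CoA through mevalonate, isoprenoid units, squalene and lanosterol. The pathway is switched as a unit by the transcription factor SREBF2 (sterol regulatory element binding transcription factor), which the INSIG proteins hold back in the endoplasmic reticulum when sterols are plentiful. Cells also take cholesterol from lipoproteins and, when they hold too much, store it as esters or send it out through ABC transporters. The liver is a main site of all of these steps.

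The recovered depth was 15423306 to 16705165 fragments in HL, 15417718 to 16584887 in CL, 11852903 to 13309021 in HM and 12374035 to 13432987 in CM. The tissue labels fitted the markers: the summed FPKM of 6 hepatocyte genes led by ALB was 103690 to 179480 in HL and 127260 to 201210 in CL, against 72.3 to 389 in HM and 22.0 to 158 in CM, and that of 4 skeletal muscle genes was 0.837 to 4.70 in HL and 0.800 to 2.26 in CL, against 32443 to 58652 in HM and 29057 to 46619 in CM. CL 1 and HM 2 stood apart from the other libraries of their groups: CL 1 was the lowest or the highest of CL at 33.2% and 38.4% of the genes tested, and HM 2 of HM at 37.7% and 34.9%. In the liver, the macrophage genes were higher with linseed oil: the sum of the 5 with a row, of 7 listed (MRC1, CSF1R, MARCO, C1QA and C1QB) was 87.4 to 408 in HL and 21.2 to 115 in CL, 5 of 5 were higher in HL at an unadjusted p under 0.05 and 1 (MRC1) was a differentially expressed gene (DEG). The 5 endothelial genes summed to 24.3 to 33.2 in HL and 8.02 to 15.2 in CL, and 2 of the 4 tested were DEGs. Of all genes tested between HL and CL, 6.93% were higher in HL at an unadjusted p under 0.05 in limma, and 0.126% were DEGs. None of these macrophage and endothelial genes was at 0 in all libraries of a liver group. In bulk tissue, fewer cells of a type and less RNA per cell cannot be told apart.

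The first comparison asked how the pathway is divided between the tissues. With the control diet, 25 of 27 members tested were DEGs that were higher in the liver (CL vs. CM), and 0 were lower, against 20.4% higher and 21.9% lower (42.3% in all) of the genes tested. A gene counted as a DEG when its adjusted p was under 0.05 and its log2 fold change, computed on FPKM + 1, passed 1 or -1. With linseed oil (HL vs. HM), 23 of 27 were higher and 0 lower, against 19.8% and 20.4% (40.2% in all) of the genes tested. The 2 comparisons hold different birds and libraries. SQLE, NSDHL, ABCG5 and ABCG8 were below 1 FPKM in every muscle library and entered the test through the liver alone, so these had to differ and the counts serve as a description. Leaving out 1 library at a time gave 20 to 25 DEGs in CL vs. CM and 19 to 23 in HL vs. HM, the lowest count without CL 1, CL 2 or CL 3 and without any 1 of the HL libraries. With 4 liver libraries those 4 genes no longer passed the filter, and 23 members were tested. Median log2 fold changes were 2.71 for the members in CL vs. CM, against 0.02 for all genes, and 2.23 in HL vs. HM, against 0.01. Of the 4 matched entries, 3 were DEGs higher in the liver in CL vs. CM and 2 in HL vs. HM. LOC101794003, the entry for MYLIP, was a DEG that was lower in the liver under both diets, and its groups did not overlap. Its log2 fold change was -2.14 ± 0.26 (SE) in CL vs. CM and -1.03 ± 0.33 in HL vs. HM. The limma adjusted p was 1.0e-05 and 0.016.

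**Figure D1:**
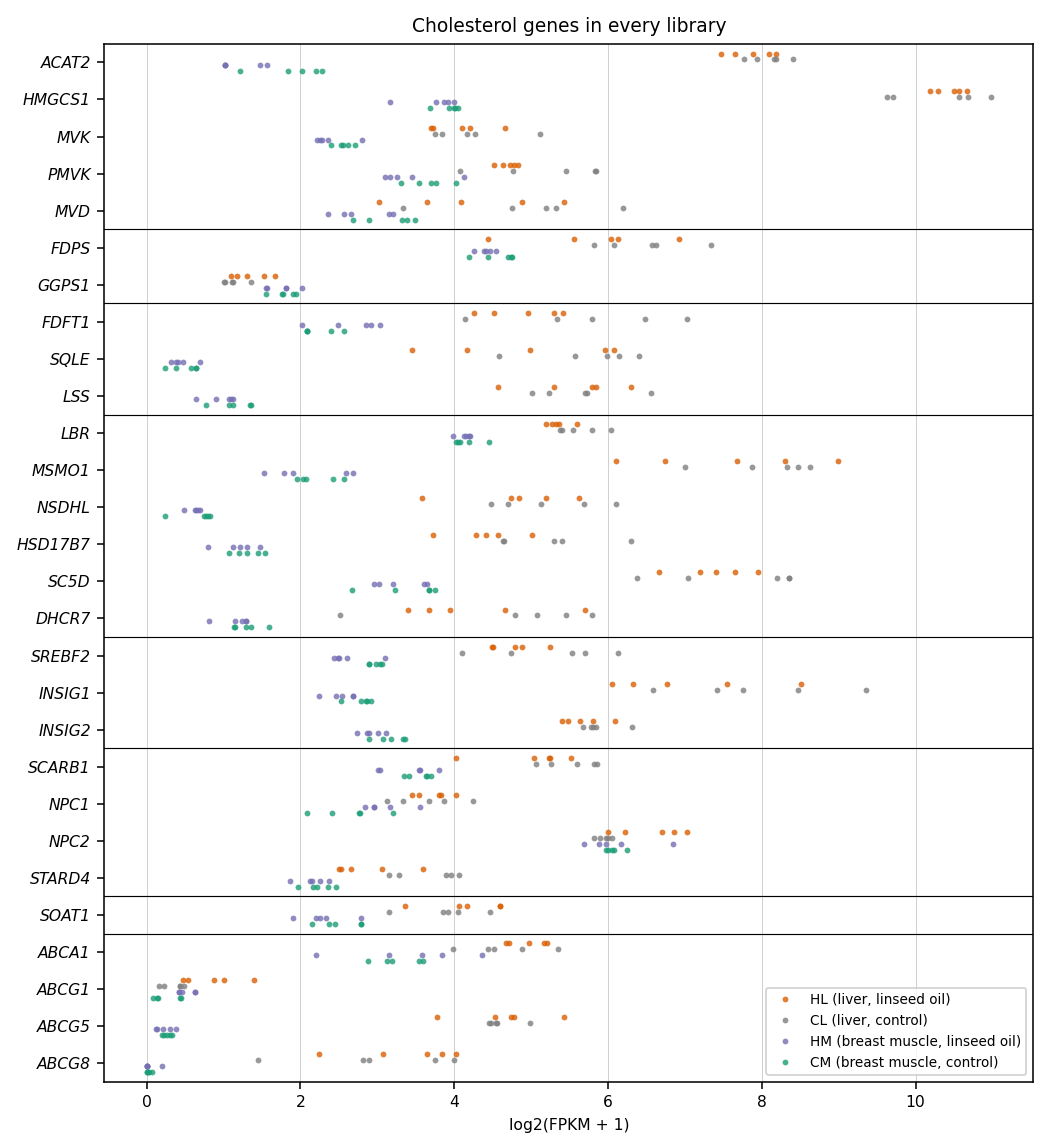
Each row is a cholesterol gene, grouped by role from the mevalonate steps at the top to export at the bottom, and each point is 1 library, plotted as log2(FPKM + 1), with HL in orange, CL in grey, HM in purple and CM in green. HMGCS1 lies farthest to the right in both liver groups, and NPC2 is the gene whose liver and muscle points lie together at a high level.

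On the scale of log2(FPKM + 1), the first enzymes of the mevalonate branch had the widest gap of the members tested. HMGCS1, the cytosolic synthase that makes HMG-CoA, had 1449, 1165, 1514, 1248 and 1629.8 FPKM in HL 1 to HL 5, against 15.0, 7.96, 12.6, 13.6 and 14.1 FPKM in HM 1 to HM 5. In the control birds it had 2020.2, 792, 1640.0, 833 and 1510.0 FPKM in CL, against 15.5, 15.1, 14.2, 14.9 and 11.9 FPKM in CM. The lowest liver was thus far above the highest muscle, and the mean was 111-fold higher in HL than in HM and 94.9-fold higher in CL than in CM. ACAT2, the cytosolic thiolase that joins acetyl-CoA units, averaged 235 ± 47.4 FPKM in HL and 1.36 ± 0.472 in HM (SD, n = 5 each), a ratio of 173. It averaged 275 ± 46.5 FPKM in CL and 2.88 ± 0.996 in CM, a ratio of 95.4. Their log2 fold changes in CL vs. CM were 6.38 ± 0.26 (SE) for HMGCS1 and 6.18 ± 0.21 for ACAT2, with limma adjusted p of 2.1e-10 and 3.7e-11. The enzymes that follow were less divided. The mevalonate kinase MVK, the phosphomevalonate kinase PMVK and the decarboxylase MVD had mean ratios of 3.83, 2.48 and 3.45 in HL over HM and 3.85, 3.31 and 4.49 in CL over CM, and MVD overlapped between the tissues under both diets.

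FDPS, which makes farnesyl diphosphate, averaged 64.3 ± 36.8 FPKM in HL and 20.4 ± 1.56 in HM, and 94.9 ± 41.1 in CL and 23.0 ± 3.84 in CM (SD, n = 5 each). HL 4, at 20.7 FPKM, lay within the FDPS range of HM (18.2 to 22.4), while CL and CM did not overlap. GGPS1, which uses the same units for geranylgeranyl diphosphate and so feeds protein prenylation rather than sterols, went the other way. It had 1.01, 1.57, 1.18, 1.03 and 1.15 FPKM in CL, against 2.74, 1.92, 2.83, 2.39 and 2.41 FPKM in CM, so that no library of the groups overlapped. It was the member with the largest difference below 0 in CL vs. CM, with a log2 fold change of -0.66 ± 0.12 (SE) and a limma adjusted p of 3.0e-04, inside the fold threshold. In HL and HM the groups overlapped, at 1.13, 1.47, 1.26, 2.19 and 1.87 FPKM in HL, against 2.51, 1.94, 2.50, 1.97 and 3.05 FPKM in HM, with a log2 fold change of -0.40 and a limma adjusted p of 0.034. GGPS1 overlaps ARID4B on the other strand, which averaged 6.88 FPKM over the liver and 8.13 FPKM over the muscle libraries. The strand used in counting is not given in the sources used here, so reads of the 2 genes cannot be told apart.

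Of the steps committed to sterols, SQLE, the squalene epoxidase, had 69.4, 62.2, 83.6, 46.6 and 23.0 FPKM in CL, against 0.558, 0.494, 0.563, 0.175 and 0.301 FPKM in CM, and 61.1, 30.8, 16.9, 9.94 and 66.3 FPKM in HL, against 0.321, 0.612, 0.390, 0.246 and 0.301 FPKM in HM. The muscle values rest on 12 to 35 fragments in CM and 14 to 32 in HM. Its log2 fold change in CL vs. CM was 5.24 ± 0.28 (SE), given as a description since the gene entered the test through the liver alone. LSS, the lanosterol synthase, had mean ratios of 51.8 in HL over HM and 43.4 in CL over CM. FDFT1, the squalene synthase, had 5.44 and 17.4, since its mean was lower in HL than in CL and higher in HM than in CM, which is taken up again with the interaction of diet and tissue.

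After lanosterol, MSMO1 (the C4-methyl oxidase) had 352, 321, 395, 233 and 127 FPKM in CL, against 3.22, 4.38, 4.92, 2.87 and 3.10 FPKM in CM. With linseed oil it had 316, 203, 106, 68.1 and 509 FPKM in HL, against 2.44, 5.03, 2.73, 1.89 and 5.42 FPKM in HM. All liver libraries were above all muscle libraries, and the log2 fold change in CL vs. CM was 5.85 ± 0.28 (SE), with a limma adjusted p of 9.6e-10. Its partner in the removal of the C4 methyl groups, NSDHL, had a ratio of 54.7 in HL over HM and 64.8 in CL over CM. HSD17B7 (the 3-keto reductase of the same step), SC5D (the C5 desaturase) and DHCR7 (the last reductase of one branch) had ratios of 16.2, 19.2 and 17.8 in HL over HM and 27.3, 23.2 and 21.8 in CL over CM. LBR, a C14 sterol reductase that is also a receptor of the nuclear lamina, was the least divided of the 6, at 2.43 and 2.91. DHCR7 overlaps NADSYN1 and LSS a long noncoding RNA on the other strand. These averaged 11.8 and 0.822 FPKM in the liver and 2.81 and 0.284 FPKM in the muscle. DHCR7 itself averaged 1.24 FPKM in HM and 1.48 FPKM in CM.

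Sensing genes were also higher in the liver. SREBF2 averaged 27.0 ± 6.34 FPKM in HL and 5.27 ± 1.32 in HM, and 41.4 ± 21.0 in CL and 6.85 ± 0.433 in CM (SD, n = 5 each). INSIG1 and INSIG2, the endoplasmic reticulum proteins that retain SREBF2, had mean ratios of 33.4 and 7.77 in HL over HM and 50.1 and 7.29 in CL over CM. Among genes of uptake and movement inside the cell the gap was smaller than for most synthesis enzymes. SCARB1, the receptor for high-density lipoprotein, had ratios of 3.40 and 4.26, and STARD4, a soluble sterol carrier, had 1.91 and 3.26. NPC1, the membrane protein that moves cholesterol out of lysosomes, had 1.61 and 2.20, and it overlaps RMC1 on the other strand, at a mean of 30.9 FPKM in the liver and 18.7 FPKM in the muscle.

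NPC2, the soluble lysosomal protein that hands cholesterol to NPC1, was the most abundant member in both muscle groups. It had 61.9, 63.0, 65.1, 55.5 and 58.5 FPKM in CL, against 61.9, 75.2, 65.3, 62.9 and 66.6 FPKM in CM. The ranges overlapped, the log2 fold change was -0.12 with a 95% interval of -0.40 to 0.15, and the limma adjusted p was 0.401. Export genes were higher in the liver by amounts that differed between them. ABCA1, which loads cholesterol on apolipoprotein A-I, had mean ratios of 2.72 in HL over HM and 2.86 in CL over CM. ABCG5 and ABCG8, which form the pump that sends sterols into bile, averaged 25.8 and 10.2 FPKM in HL and 23.5 and 8.34 FPKM in CL, against 0.178 and 0.0307 FPKM in HM and 0.201 and 0.0160 FPKM in CM. These genes lie head to head in the table, with 44 bases between them, and ABCG8 was at 0 in 4 libraries of HM and 2 of CM. ABCG5 overlaps DYNC2LI1 on the other strand, at a mean of 5.89 FPKM in the liver and 6.58 FPKM in the muscle. SOAT1, which esterifies cholesterol, had ratios of 4.38 and 3.0. ABCG1, an exporter of macrophages and other cells, did not pass the filter in any comparison and is described with the diets.

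By level, 25 of 28 members averaged at least 10 FPKM in HL and 25 in CL, against 6 in HM and 6 in CM. The same 5 genes were above a mean of 100 in both liver groups (HMGCS1, INSIG1, MSMO1, ACAT2 and SC5D), and none in a muscle group. The order in CL ran from HMGCS1 at 1359 FPKM through INSIG1 (298), MSMO1 (286), ACAT2 (275) and SC5D (231) to GGPS1 (1.19) and ABCG1 (0.278). Of the 27 steps in that order 24 joined genes whose libraries overlapped, so only HMGCS1 at the top and GGPS1 and ABCG1 at the bottom stood apart from their neighbours. In CM the order began with NPC2 at 66.4 FPKM, followed by FDPS (23.0), LBR (16.9), HMGCS1 (14.3) and PMVK (11.9), and 24 of 27 steps again overlapped.

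The next comparison asked what linseed oil changed in the liver. No member was a DEG in HL vs. CL (0 of 27 tested, against 0.126% of all genes), and the lowest limma adjusted p among them was 0.227, for STARD4. The study, which used DESeq2 with the same cutoffs, reported many more liver DEGs than this limma fit called. At an unadjusted p under 0.05 from limma there were 3 members, 1 higher and 2 lower, which is 11.1% of those tested and near the 12.3% of all genes (6.93% higher and 5.42% lower). No member had groups that did not overlap, against 2.80% of all genes. The signs were uneven: 14 of 16 synthesis enzymes had a log2 fold change below 0, with a median of -0.44, while 46.4% of all genes tested were above 0 and their median was -0.03. The 6 enzymes after lanosterol, the 3 between squalene and lanosterol and the 3 sensing genes were all below 0, whereas the 3 tested export genes were all above 0. The 6 hepatocyte markers were also all below 0 in HL vs. CL, with a median log2 fold change of -0.42, and 2 of them (TTR and F2) had an unadjusted p under 0.05 in limma. Their part in the lower values of the synthesis enzymes was not tested.

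**Figure D2:**
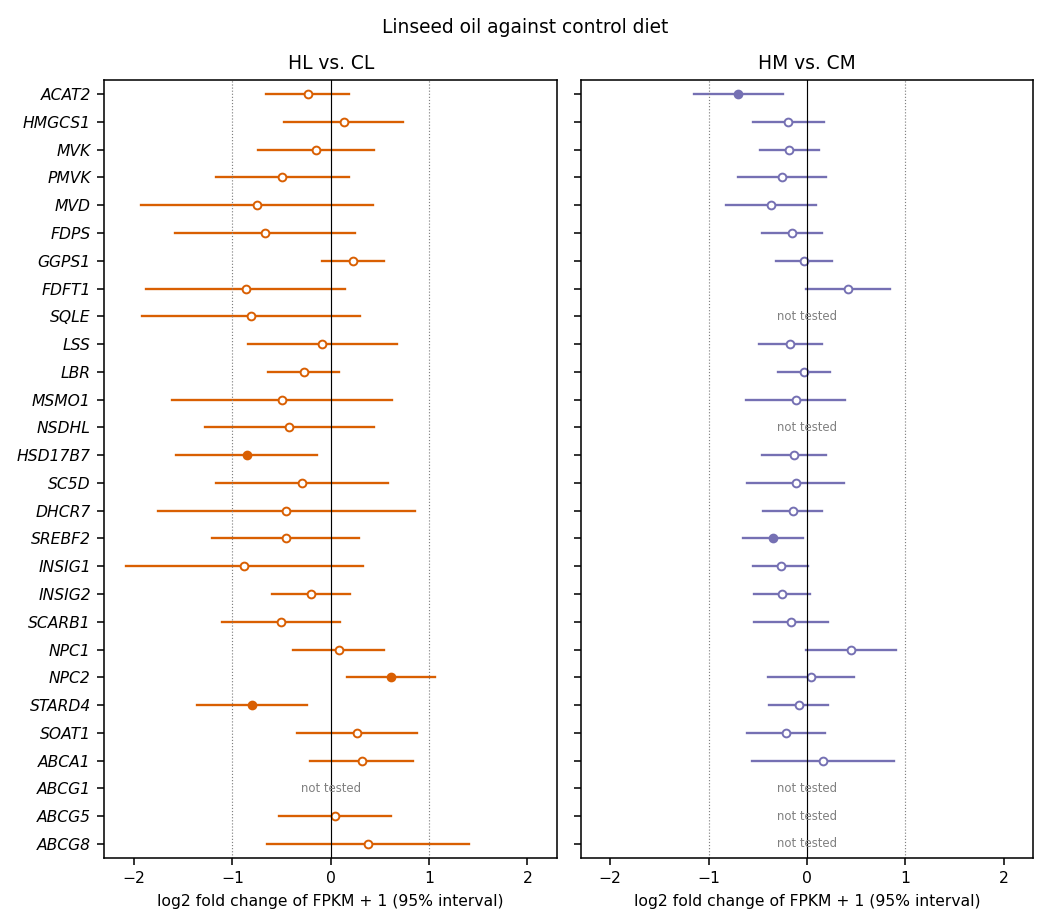
Points are log2 fold changes of FPKM + 1 with linseed oil over control diet and lines are 95% intervals from limma, for HL vs. CL at the left and HM vs. CM at the right. Filled points have an unadjusted p under 0.05, dotted lines mark the fold threshold, and the synthesis enzymes of the liver lie mostly left of 0 with intervals that cross it.

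STARD4 had 7.38, 5.29, 4.79, 4.64 and 11.1 FPKM in HL, against 15.7, 13.9, 14.6, 7.90 and 8.74 FPKM in CL. Only HL 5 reached into the control range, above CL 4 and CL 5. The mean was 6.65 ± 2.74 FPKM in HL and 12.2 ± 3.60 in CL (SD, n = 5 each), with a log2 fold change of -0.80 ± 0.26 (SE) and an unadjusted p of 0.0087 from limma. In the table the gene lies on the minus strand of sequence NC_051804.1 from 61664079 to 61673887, and the study's methods name ZJU1.0 as the duck assembly used for mapping.

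HSD17B7 had 31.2, 20.3, 18.5, 12.2 and 22.7 FPKM in HL, against 23.8, 38.3, 77.7, 41.1 and 24.1 FPKM in CL. HL 2, HL 3, HL 4 and HL 5 lay below the lowest CL library, and HL 1 lay between the CL values. The log2 fold change was -0.86 ± 0.33 (SE), with a limma adjusted p of 0.304 and an unadjusted p of 0.0227. It lies on the minus strand of NC_051779.1 from 8681622 to 8687003. Without HL 4, its lowest library, or without CL 3, its highest, the unadjusted p was no longer under 0.05.

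NPC2 was the member that was higher. It had 73.7, 115, 62.9, 103 and 129.5 FPKM in HL, against 61.9, 63.0, 65.1, 55.5 and 58.5 FPKM in CL, so 4 HL libraries were above all of CL and HL 3 was within its range. The HL libraries also spread more, with a mean of 96.8 ± 28.0 FPKM in HL and 60.8 ± 3.81 in CL (SD, n = 5 each). The log2 fold change was 0.61 ± 0.20 (SE), with a limma adjusted p of 0.247 and an unadjusted p of 0.0110. HL 3 was also the HL library with the lowest summed macrophage markers, at 87.4 FPKM. The macrophage markers differed in that library: MRC1 was at its highest of HL there, at 62.2 FPKM, and CSF1R at its lowest, at 2.0 FPKM. The gene lies on the minus strand of NC_051776.1 from 24892291 to 24894464.

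ABCG1 was too low for the filter, with 0.456, 0.831, 0.393, 1.01 and 1.64 FPKM in HL, against 0.405, 0.349, 0.166, 0.354 and 0.117 FPKM in CL, on 41 to 157 fragments in HL and 12 to 40 in CL. Again HL 3 was the lowest of HL and the only one within the CL range. In a fit with no filter the log2 fold change was 0.51 ± 0.17 (SE), with a limma adjusted p of 0.315. LOC101794003, the entry for MYLIP, a ubiquitin ligase that removes lipoprotein receptors and is induced by sterol excess in mammals, had 8.95, 19.3, 8.64, 24.7 and 30.4 FPKM in HL, against 7.86, 7.90, 8.33, 4.31 and 3.29 FPKM in CL. Its groups did not overlap, though HL 3 and HL 1 were just above the highest CL library, and the log2 fold change was 1.31 ± 0.36 (SE) with a limma adjusted p of 0.172. The part of the macrophage and endothelial genes, which were higher in HL, in the values of NPC2, ABCG1 and this entry was not tested.

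**Figure D3:**
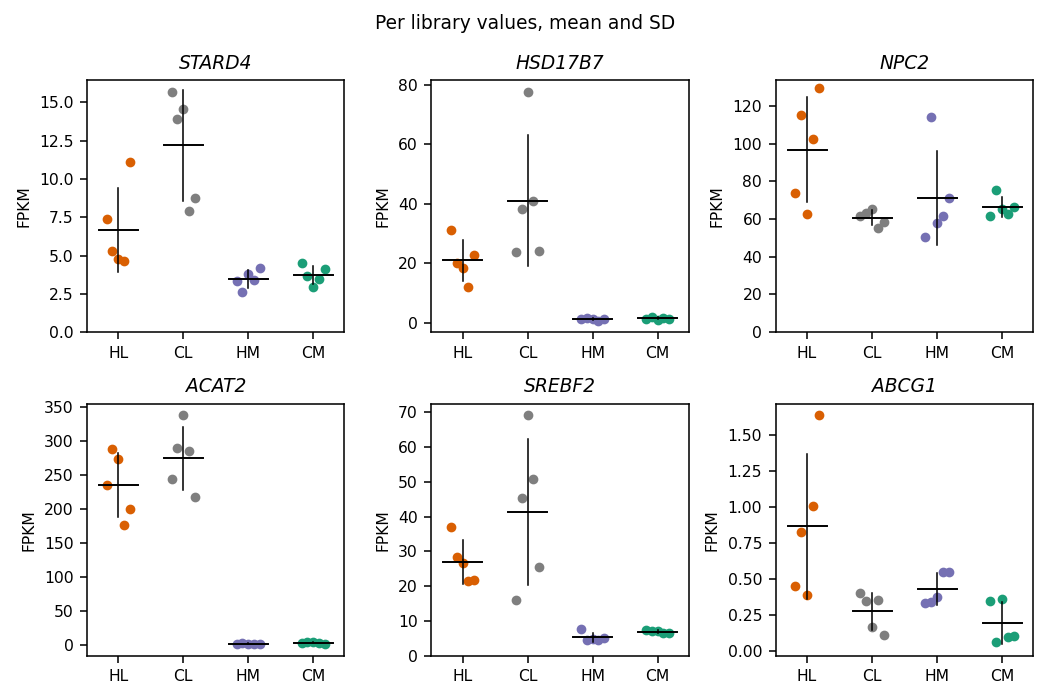
FPKM of 6 members in every library, with the horizontal line at the mean and the vertical line 1 SD to either side (5 libraries a group). STARD4 and HSD17B7 are lower in most HL than CL libraries, NPC2 and ABCG1 are higher in 4 of 5 HL libraries, and ACAT2 and SREBF2 in muscle are near the bottom of axes set by the liver.

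Among the other members, INSIG1 had the largest difference below 0 but also one of the widest spreads. It had 186, 108, 79.4, 65.2 and 362 FPKM in HL, against 654, 215, 354, 95.2 and 170.4 FPKM in CL, with a log2 fold change of -0.88 and a 95% interval of -2.08 to 0.32. FDFT1 had 38.3, 30.2, 18.2, 22.0 and 41.5 FPKM in HL, against 16.7, 88.2, 130.0, 39.3 and 54.3 FPKM in CL. Its CL values ran from the lowest of all livers, in CL 1, to the highest, in CL 3, and the log2 fold change was -0.86 with an interval of -1.88 to 0.15. SQLE and MVD had log2 fold changes of -0.81 and -0.75, FDPS of -0.67 and SCARB1 of -0.51. HMGCS1 was at 0.13 (interval -0.48 to 0.74) and SREBF2 at -0.46 (-1.21 to 0.29). Of the entries matched by identity, CYP51A1 (the lanosterol demethylase) was at -0.87, IDI1 (the isopentenyl diphosphate isomerase) at -0.82 and SCAP (the escort of SREBF2) at -0.91, with limma adjusted p of 0.436, 0.504 and 0.256.

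CL 1 had much weight in these values. Without it, 9 members passed an unadjusted p under 0.05 in limma (FDFT1, PMVK, HSD17B7, SREBF2, STARD4, MVD and SCARB1 lower in HL, NPC2 and ABCA1 higher). The share of all genes that did so was 24.4% (13.5% lower in HL), and the lowest limma adjusted p of a member was 0.0762. CL 1 had the lowest value of CL for 9 of the 16 synthesis enzymes and the highest for 3, where it was the lowest for 33.2% and the highest for 38.4% of all genes. Without HL 5 there were 5 such members, against 10.7% of all genes. The counts without another library were 2 to 4, against 8.02% to 14%. Synthesis enzymes below 0 numbered 12 to 15 of 16 under these omissions, and their median log2 fold change was between -0.54 and -0.18.

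In the breast muscle no member was a DEG in HM vs. CM (0 of 23 tested), nor was any gene (0%) in this limma fit. The study reported DEGs in the breast muscle too, with DESeq2 and the same cutoffs. The reason for the gap was not tested. At an unadjusted p under 0.05 from limma there were 2 members, both lower, or 8.70% of those tested, against 5.50% of all genes (3.04% lower). No member had groups that did not overlap, against 1.23% of all genes. Of 14 synthesis enzymes 13 had a log2 fold change below 0, with a median of -0.15, while 49.1% of all genes were above 0 and their median was -0.0034. SQLE, NSDHL, ABCG1, ABCG5 and ABCG8 were too low to be tested here.

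ACAT2 had 1.02, 1.97, 1.02, 1.02 and 1.77 FPKM in HM, against 2.58, 3.85, 3.59, 3.06 and 1.33 FPKM in CM. Only CM 5 was as low as the HM libraries. The values rest on 27 to 52 fragments in HM and 39 to 127 in CM. The log2 fold change was -0.70 ± 0.21 (SE), with a limma adjusted p of 0.646 and an unadjusted p of 0.0060, and leaving out each library in turn gave -0.87 to -0.60. Over all alternatives run it went as low as -1.05, past the fold threshold, and the lowest limma adjusted p was 0.188. The ratio of mean FPKM, to which no 1 is added, was 0.471 in HM over CM. In the liver of these diets the gene had 235, 289, 273, 177 and 201 FPKM in HL, against 244, 289.8, 338, 285 and 217 FPKM in CL, which overlapped, with a log2 fold change of -0.23. ACAT2 lies on the minus strand of NC_051774.1 from 48817755 to 48825000.

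SREBF2 had 7.59, 4.61, 4.68, 4.40 and 5.06 FPKM in HM, against 7.33, 7.19, 6.93, 6.41 and 6.40 FPKM in CM. In HM 4 libraries were below all of CM, and HM 1 was above all of CM. The log2 fold change was -0.35 ± 0.14 (SE), with a limma adjusted p of 0.847 and an unadjusted p of 0.0314. SREBF2 lies on the plus strand of NC_051772.1 from 42725976 to 42742886. INSIG1 and INSIG2 were at -0.27 and -0.25, with 95% intervals of -0.55 to 0.02 and -0.53 to 0.03. The largest differences above 0 were those of NPC1 (0.45, interval -0.01 to 0.91) and FDFT1 (0.42, interval -0.01 to 0.85). ABCG1 had 0.335, 0.341, 0.378, 0.548 and 0.552 FPKM in HM, against 0.353, 0.0628, 0.363, 0.10 and 0.109 FPKM in CM. In the fit with no filter its log2 fold change was 0.26 ± 0.09 (SE), with a limma adjusted p of 0.798 and an unadjusted p of 0.0123. Without HM 2, there were 5 members at an unadjusted p under 0.05 (ACAT2, PMVK, INSIG1, MVD and SREBF2, all lower), against 13.3% of all genes. Without HM 5 there were 4 (ACAT2 and MVK lower, FDFT1 and NPC1 higher), against 5.17% of all genes. Without CM 1 there were 3 (ACAT2 lower, FDFT1 and NPC1 higher), against 6.09%. Without HM 3, HM 4 or CM 2 only ACAT2 was left, against 4.56%, 5.78% and 4.17% of all genes. The counts were 2 or 3 otherwise, against 4.22% to 6.19%. SREBF2 was not among these members without HM 3, HM 4, HM 5, CM 1, CM 2 or CM 3.

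Whether the diet acted differently in the tissues was tested as the interaction of diet and tissue over all 20 libraries. No member was a DEG (0 of 27, against 0.00888% of all genes), and the lowest limma adjusted p of a member was 0.518. At an unadjusted p under 0.05 there were 2 members (7.41%, against 8.11% of all genes). FDFT1 had an interaction of -1.28 ± 0.53 (SE) on the log2 scale, with 95% limits of -2.39 and -0.18, since it was at -0.86 in HL vs. CL and 0.42 in HM vs. CM. In muscle it had 4.63, 7.19, 6.55, 6.20 and 3.04 FPKM in HM, against 4.90, 3.25, 4.28, 3.26 and 3.23 FPKM in CM, and these groups overlapped. STARD4 had an interaction of -0.72 ± 0.30 (SE), with -0.80 in the liver and -0.08 in the muscle.

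The birds of a group differed more in these genes in the liver than in most genes. The SD of log2(FPKM + 1) within diet groups had a median of 0.673 over the 16 synthesis enzymes and 0.548 over the 27 members tested in the liver, against 0.318 over all genes tested, and 12 of the 16 enzymes were in the top 25% of all genes. In the breast muscle it was 0.240 over 14 enzymes and 0.257 over 23 members, against 0.290 over all genes, and 1 enzyme was in the top 25%. The mean FPKM of the members had a median of 29.9 in HL and 41.2 in CL, but 4.53 in HM and 4.85 in CM. For all genes averaging at least 1 FPKM the medians were 7.70, 8.05, 6.67 and 6.63. The added 1 narrows the spread of low genes, and the part of level in this contrast was not tested. DHCR7 in CL had an 11.6-fold range from the lowest to the highest library, FDFT1 and MVD 7.80-fold and 7.95-fold. MSMO1 had the widest range in HL, at 7.47-fold. By contrast HMGCS1, the most abundant, had 1.40-fold in HL and 2.55-fold in CL.

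Part of this spread was shared between enzymes. CL 3 had the highest value of CL for 12 of the 16 synthesis enzymes, where it was the highest for 23.8% of all genes, and HL 4 had the lowest value of HL for 10 of 16, where it was the lowest for 19.6% of all genes. The mean log2(FPKM + 1) over the 16 enzymes was 5.99, 5.60, 5.24, 4.80 and 5.74 in HL 1 to HL 5, against 5.51, 6.02, 6.57, 5.86 and 5.44 in CL 1 to CL 5. The highest HL bird was thus within the CL range and HL 3 and HL 4 were below it. The mean of each diet group was first taken away. Across the 10 liver libraries, the median Pearson correlation over the 120 pairs of synthesis enzymes was then 0.374, with 86 pairs above 0. Over all pairs of genes tested the median was 0.006, with 50.4% of pairs above 0. These libraries share their tissue and scaling, and the values are a description. The median of the enzymes was 0.469 without CL 1, 0.384 without HL 4 and 0.289 without CL 3. The 11 other members tested had a median of 0.253 among themselves, and 0.361, 0.310 and 0.320 under the same omissions. Without CL 3 their median was thus above that of the enzymes. In the breast muscle the median of the synthesis enzymes was 0.107 over 91 pairs.

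Within the liver pattern the enzymes were not alike. NSDHL, HSD17B7, LSS and FDPS followed the other enzymes most closely, with median correlations of 0.717, 0.687, 0.684 and 0.666. SREBF2, though not an enzyme, had a median of 0.592 with the 16 enzymes, 13 of them above 0. It was at -0.47 with HMGCS1 and -0.45 with LBR, and its median was 0.450 without CL 3. GGPS1, LBR, HMGCS1 and PMVK did not follow the other enzymes, at -0.26, -0.17, -0.06 and 0.13. Outside synthesis, STARD4 and INSIG1 had 0.404 and 0.334, while ABCG5, ABCA1 and SOAT1 had -0.26, -0.18 and -0.13. In CL 1 the genes divided: HMGCS1, DHCR7, INSIG1 and INSIG2 were above their CL mean while MVD, FDFT1, SC5D and SREBF2 were the lowest of CL.

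**Figure D4:**
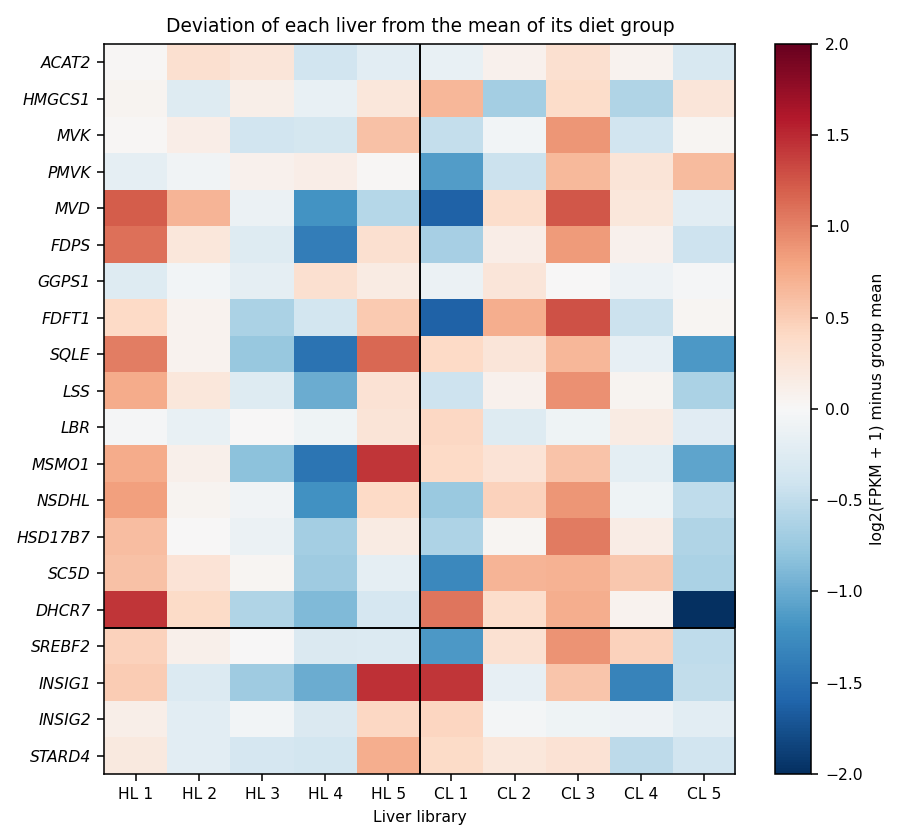
Each column is a liver library and each row a gene, with synthesis enzymes above the horizontal line and SREBF2, INSIG1, INSIG2 and STARD4 below it, coloured by log2(FPKM + 1) minus the mean of its diet group (red above, blue below, with DHCR7 in CL 5 past the end of the scale). HL 4 is blue and CL 3 is red in most rows, and CL 1 holds both colours.

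Beyond the members, 25 of 32 other listed genes of sterol handling had a row, and none was a DEG with the diet in either tissue (0 of 21 tested in HL vs. CL and 0 of 23 in HM vs. CM). In the liver, 4 had an unadjusted p under 0.05 in limma (19.0% of those tested, against 12.3% of all genes), 3 higher and 1 lower, against 6.93% higher and 5.42% lower of all genes. NCEH1 and LIPA, hydrolases that free cholesterol from its esters, were the largest above 0. NCEH1 had 6.66, 5.99, 8.55, 10.3 and 9.43 FPKM in HL, against 3.89, 5.70, 4.71, 3.36 and 5.05 FPKM in CL, with no overlap, a log2 fold change of 0.72 ± 0.18 (SE) and a limma adjusted p of 0.128. LIPA averaged 48.5 ± 16.0 FPKM in HL and 28.1 ± 5.76 in CL (SD, n = 5 each), with a log2 fold change of 0.72 and a limma adjusted p of 0.252. The other was NR1H3, the liver X receptor alpha that induces sterol export genes, with 53.0, 49.8, 38.7, 44.4 and 50.4 FPKM in HL, against 38.6, 32.5, 37.6, 23.8 and 25.5 FPKM in CL, a log2 fold change of 0.58 ± 0.18 (SE) and a limma adjusted p of 0.200. NR1H3 is named here as one of this count and was chosen after its values were seen. The largest below 0 were STARD5, a relative of STARD4, at -0.80 with a limma adjusted p of 0.312, and LCAT, which esterifies cholesterol in plasma, at -0.46. Macrophages and endothelial cells also use NCEH1, LIPA and NR1H3, and the part of the higher macrophage and endothelial markers in HL was not tested for these genes.

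In the breast muscle, GRAMD1B, a sterol transfer protein, had a log2 fold change of -0.18 in HM vs. CM. The largest above 0 were CH25H (cholesterol 25-hydroxylase) at 0.36 and LCAT at 0.24. The 95% intervals of these 3 genes hold 0.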

How the data were processed

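RNA-seq was done on poly-T selected mRNA of liver and breast muscle. By the study's methods, clean reads were aligned with Hisat2 2.0.5. The reference genome was the duck assembly ZJU1.0. The counter and the strand used in counting are not given in the sources used here. The table deposited by the authors holds FPKM (fragments corrected for exon length and depth), 1 column per library. Within each library all values came out as whole fragments (100%, tolerance 0.05), which gave the depth.

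Tests were made in limma 3.58.1 (R 4.3.3; lmFit and trended eBayes) on log2(FPKM + 1). A gene was tested if 5 or more libraries of the comparison reached 1 FPKM, with Benjamini-Hochberg adjustment over all genes tested. Diet comparisons used the 10 libraries of a tissue, tissue comparisons the 10 of a diet, and the interaction all 20. All p-values are from limma and two-sided. They treat the 5 birds of a group as independent. In the tissue comparisons and the interaction they also treat liver and muscle libraries as independent, although all 20 came from 10 birds. Plots came from matplotlib 3.10.9 (Python 3.11.15).

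Members and lists were chosen with earlier results of these data known. Values in every library are given for members that were DEGs or had an unadjusted p under 0.05 with the diet, and for the 4 largest differences in each direction in CL vs. CM (2 lay below 0). INSIG1, FDFT1, ABCG1 and LOC101794003 were added after their values were seen. Of other sterol genes, the 2 largest in each direction with the diet are named. Values of 1 of them, which the counts include, are not reported here. All 28 members matched the RefSeq gene table (Pekin duck), used for names only. Lists of cell type markers were hepatocytes, skeletal muscle, macrophages, adipocytes, endothelium, cholangiocytes, red blood cells and intestine. Alternatives were other pseudocounts (0.1, 0.5), no filter, a minimum of 5 FPKM, quantile normalization, median-ratio scaling, robust eBayes, a fit of all 20 libraries, voom on recovered fragments (10 or more in 5 or more libraries), the replicate block, and each library left out. Counting the 4 matched entries was added after seeing the data.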

Additional observations from a re-analysis of the deposited data

Results flagged for a closer look

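In 7 of 112 group tests, 1 library of 5 lay apart from the other libraries of its group, where about 1 in 20 would do so by chance. The value given is the gap to the nearest library as a share of the range of the group on the scale of log2(FPKM + 1). HMGCS1 had 7.96 FPKM in HM 2 and 12.6 to 15.0 in the other HM libraries (0.724). MVK had 5.97 FPKM in HM 5 and 3.66 to 4.12 in the others (0.768). SREBF2 had 7.59 FPKM in HM 1 and 4.40 to 5.06 in the others (0.751). NSDHL had 0.175 FPKM in CM 1 and 0.680 to 0.763 in the other CM libraries (0.881). INSIG2 had 78.6 FPKM in CL 1 and 50.3 to 56.5 in the other CL libraries (0.742). ABCG5 had 30.8 FPKM in CL 5 and 20.8 to 22.5 in the others (0.799). ABCG8 had 0.153 FPKM in HM 3, or 9 fragments, and 0 in the other HM libraries (1.0).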

How the results depend on the processing

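The counts of members that were DEGs stayed within 1.5 times of their main value under every alternative run, at 0 for HL vs. CL, HM vs. CM and the interaction, and at 20 to 25 (CL vs. CM) and 19 to 23 (HL vs. HM) with 1 library left out. Members at an unadjusted p under 0.05 in HL vs. CL numbered 7 with all 20 libraries in one fit, against 14.6% of all genes. They numbered 5 with the 4 matched entries counted (12.3%), and 2 to 9 with 1 library left out (8.02% to 24.4%). In HM vs. CM they numbered 1 with an FPKM of at least 5 (5.69% of all genes) and 1 with all 20 libraries in one fit (5.84%). They numbered 4 with voom (5.66%), and 1 to 5 with 1 library left out (4.17% to 13.3%). ACAT2 in HL vs. CL turned to 0.047 with quantile normalization, and NPC2 in HM vs. CM turned to -0.025 with quantile normalization and ran from -0.14 (without HM 2) to 0.15 with 1 library left out. The causes were not tested. The replicate numbers are not tied to birds, and same-numbered libraries correlated at -0.16 to 0.31 (HL and HM), 0.03 to 0.28 (CL and CM), -0.17 to 0.35 (HL and CL) and -0.07 to 0.40 (HM and CM), with 2 of 5 best matched to their own number in each. With the replicate block, 4 members in HL vs. CL and 3 in HM vs. CM had an unadjusted p under 0.05, against 12.6% and 7.52% of all genes. The member DEGs were then 0, 0, 23 (HL vs. HM), 25 (CL vs. CM) and 0. With 5 birds a group, the 95% intervals of 16 of 27 members in HL vs. CL and 1 of 23 in HM vs. CM reached past the fold threshold, and genes below 1 FPKM rest on few fragments.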
